A study of Mus musculus with 9 samples.

Results

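The extracellular matrix and protease genes described here were the collagen chains, laminin chains, nidogens, perlecan (Hspg2), fibulins, fibrillins, Sparc and Sparcl1, biglycan (Bgn) and lumican (Lum), lysyl oxidases, matrix metalloproteases (Mmp genes) and their tissue inhibitors (Timp genes). They were chosen by gene symbol alone, and 98 of the 27998 genes in the table matched. Levels were read in 1 droplet single-cell RNA library of mouse ascites, the fluid that collects in the peritoneal cavity, from a model made with ID8-Def29/Vegf cells, an ovarian cancer line derived from mouse ovarian surface epithelium. The label gives the host genotype as B6_WT, names no treatment and does not say how many animals were pooled. The series also holds 4 cultures of the same line given vehicle and 4 given deferiprone, an iron chelator, for 12 h, which were not analysed here because the 8 columns of their table match no sample label. With 1 library there are no replicates, so no test between animals was possible, and every interval below covers counting error only.

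Cells were sorted into classes by marker counts of unique molecular identifiers (UMIs, each standing for 1 captured transcript). Tumour-like cells had at least 3 UMIs of Krt8, Krt18, Krt19, Wt1 and Upk3b summed and at most 1 UMI of the C1q genes, and macrophages had at least 3 UMIs of C1qa, C1qb and C1qc and at most 1 of the first set. Of 6442 kept cells, 3660 were tumour-like (median 5007 UMIs per cell), 1076 were macrophages (median 1639.5 UMIs) and 1706 were neither. Markers that the rule did not use went with the names. Csf1r, the receptor for macrophage growth factor, was at 369 UMIs per 1000000 UMIs of the class (CPM) in macrophages and 1.40 CPM in tumour-like cells, and the mesothelial gene Upk1b was at 3.15 and 41.1 CPM. The epithelial cadherin Cdh1 was at 0 UMIs in both classes. Host mesothelial cells carry the same keratins, Wt1 and Upk3b, so the rule cannot tell them from the cancer line.

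A cluster of 52 cells, found with the matrix and companion genes left out of the clustering, stood out within and beside the tumour-like class. Slpi and Mgp led it, the mesothelial markers Krt7, Krt8, Upk1b, Msln, Lrrn4 and Bnc1 and the fibroblast marker Pdgfra were higher in it than in other cells, and so were the contractile genes Tagln and Acta2. Other markers of these types were not: Wt1 was at 277 CPM in it and 449 CPM in the other tumour-like cells, Krt18 at 435 and 513 CPM, and Cdh1 and the fibroblast genes Dpt and Pi16 had 0 UMIs in it. It is called mesothelial- or fibroblast-like here; 37 of its cells passed the tumour-like rule and 15 did not. Cells of 1 cluster share a library, so the cluster's values are a description.

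Basement membranes are thin sheets built from a network of type IV collagen and a network of laminin, joined by nidogens and perlecan, and mesothelium rests on one. Interstitial matrix is made of fibrillar collagens that lysyl oxidases crosslink and that small proteoglycans and matricellular proteins such as Sparc organise. Metalloproteases cut these proteins and Timp proteins block the proteases. In ovarian cancer, tumour cells that float in ascites attach to and cross the matrix under the mesothelium that lines the peritoneal cavity.

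All 98 genes summed to 2734 CPM (95% exact Poisson interval 2711 to 2757) in tumour-like cells, 795 CPM (756 to 837) in macrophages and 7123 CPM (6743 to 7520) in the mesothelial- or fibroblast-like cluster. Sparc gave 41.2% and Timp2 22.9% of the summed UMIs in tumour-like cells, while Timp2 alone gave 75.5% of them in macrophages. Over the kept cells 32 genes had 50 or more UMIs, 12 had 10 to 49, 27 had 1 to 9 and 27 had none. The genes with no UMI included Lum, Sparcl1, Timp4, Mmp3, Mmp7 and Mmp13, and 3 UMIs over all kept cells are worth 0.121 CPM. Only 40 of the 98 had the 20 UMIs over both classes needed for a comparison. Of these, 26 were at least 2-fold higher in tumour-like cells, where 30.3% of all 11866 genes compared were, and 3 (Mmp9, Mmp19 and Col14a1) were at least 2-fold higher in macrophages, where 13.2% were. A gene that reached 20 UMIs through macrophages alone had to be called. One that reached them through tumour-like cells alone did not: Col1a1, at 2.75 CPM there and 0 UMIs in macrophages, had a ratio of 1.75 with macrophages set to 3 UMIs. The filter thus treats the 2 classes unequally, and these counts describe the set and support nothing. The median log2 difference was 1.17 over the 40 genes and 0.31 over all genes compared. Centred on that median of all genes, 25 and 3 passed, against 22.5% and 16.7% of all genes.

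RNA set free from broken cells enters every droplet, and its size was read from barcodes too poor in UMIs to be cells. It was estimated at 12.1% of macrophage UMIs and 5.70% of tumour-like UMIs from barcodes of 1 to 50 UMIs, and at 13.2% and 8.84% from barcodes of 100 to 200 UMIs. A level near the one that free RNA would give is not read as expression below. The ratios below are as measured; with free RNA subtracted by the 2 profiles, 16 and 19 of the 32 ratios of genes with 50 or more UMIs moved by over 1.5 times.

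**Figure D1:**
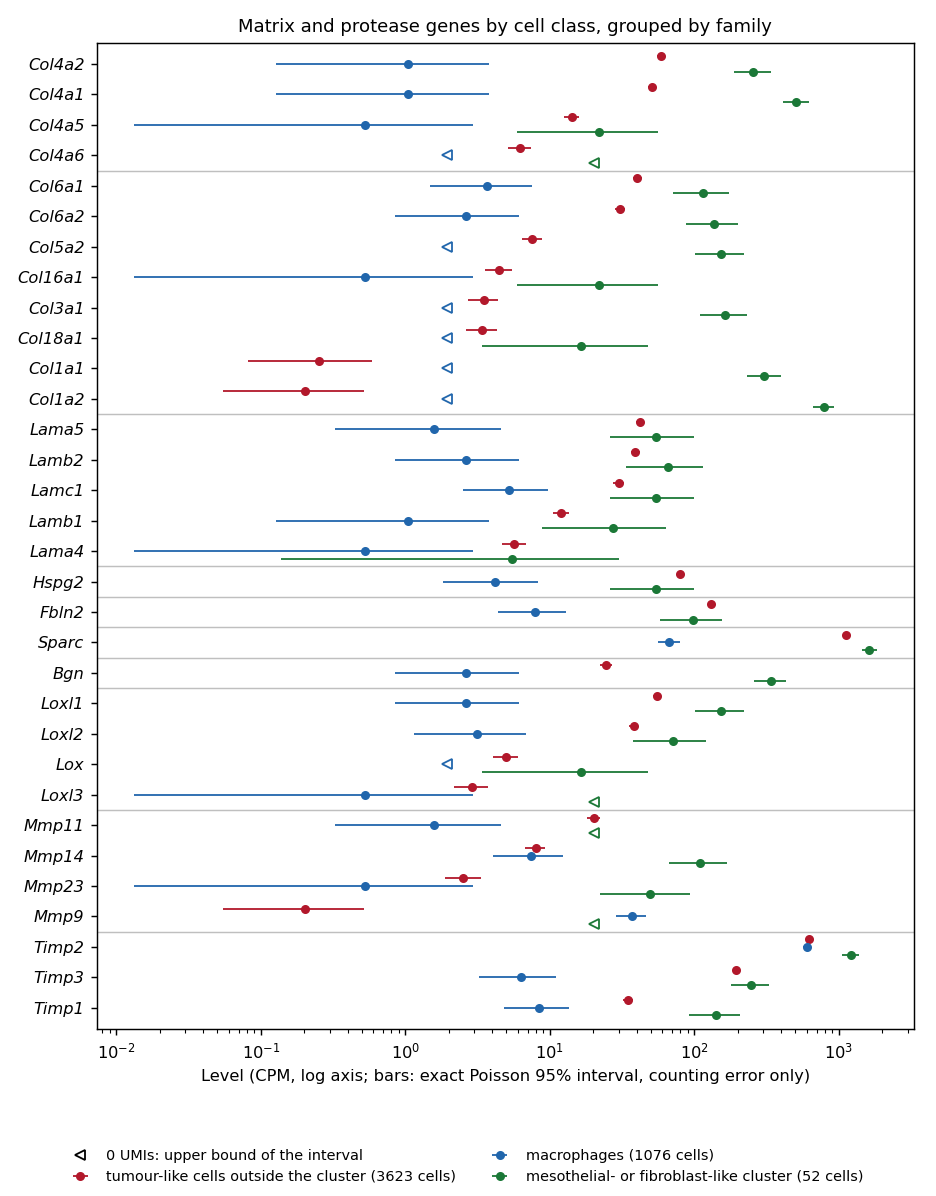
Level of the 32 genes with 50 or more UMIs, in CPM on a log axis, in tumour-like cells outside the 52-cell cluster (red), macrophages (blue) and the cluster (green), with exact Poisson 95% intervals; open triangles mark the upper bound where a class had 0 UMIs. Col1a2 and Col1a1 sat near 0.2 CPM in the other tumour-like cells and at 783 and 304.5 CPM in the cluster, Timp2 was nearly level between tumour-like cells and macrophages, and Mmp9 was highest in macrophages.

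Type IV collagen, the chains that form the basement membrane network, was found in tumour-like cells and was near absent from macrophages. Col4a1 stood at 54.4 CPM (51.2 to 57.7) in tumour-like cells and 1.05 CPM (2 UMIs) in macrophages, a ratio of 51.8 (14.3 to 428). Col4a2, its partner in the same trimer, stood at 59.8 CPM and 1.05 CPM (2 UMIs), a ratio of 56.9 (15.7 to 471). Free RNA would give 3.16 CPM of Col4a1 and 3.56 CPM of Col4a2 in macrophages, so the macrophage values did not exceed it. Col4a5 was at 14.3 CPM in tumour-like cells with 1 macrophage UMI, and Col4a6 was at 6.15 CPM with none, at least 3.91-fold higher. Col4a4 had 7 UMIs over the kept cells and Col4a3 none. The tumour-like cells thus held 4 of the 6 chains at 50 or more UMIs.

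Col4a1 and Col4a2 differed in the cluster. Col4a1 was at 506 CPM (408 to 619) there and 51.0 CPM in the other tumour-like cells, 9.92-fold higher (7.94 to 12.3), and Col4a2 was at 256 CPM and 58.4 CPM, 4.38-fold higher (3.20 to 5.86), and these intervals do not overlap. Col4a6 had 0 UMIs in the cluster, which allows up to 16.3 CPM there, so no difference from 6.20 CPM could be detected. The genes of this pair lie head to head, and their promoter windows in the RefSeq table (build GRCm38.p6, 250 bases before to 50 bases after each gene's start) overlap. They are shown because both genes had their highest level in the cluster and their lowest in macrophages. The windows are chr8:11312777-11313076 on the minus strand for Col4a1 and chr8:11312555-11312854 on the plus strand for Col4a2, and the annotated starts lie 21 bases apart. Capitals mark the 78 bases that both windows hold, chr8:11312777-11312854, each read 5′ to 3′ on its own gene's strand.
Col4a1: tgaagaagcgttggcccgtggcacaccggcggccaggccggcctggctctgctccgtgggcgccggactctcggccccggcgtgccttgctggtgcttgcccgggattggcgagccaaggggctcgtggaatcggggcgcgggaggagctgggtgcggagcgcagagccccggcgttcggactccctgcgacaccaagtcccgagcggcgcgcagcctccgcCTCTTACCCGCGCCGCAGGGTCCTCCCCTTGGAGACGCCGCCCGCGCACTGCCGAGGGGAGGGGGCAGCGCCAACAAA
Col4a2: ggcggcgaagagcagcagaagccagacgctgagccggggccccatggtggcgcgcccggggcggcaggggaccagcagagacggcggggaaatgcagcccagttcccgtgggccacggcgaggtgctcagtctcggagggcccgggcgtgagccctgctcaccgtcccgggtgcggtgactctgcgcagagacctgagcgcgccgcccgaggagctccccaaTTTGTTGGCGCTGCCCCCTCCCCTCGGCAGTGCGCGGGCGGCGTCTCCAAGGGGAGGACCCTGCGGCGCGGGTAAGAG

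Guanine and cytosine made up 74.0% of the Col4a1 window and 73.7% of the Col4a2 window. The motif GGGCGG (searched on both strands) matched 1 time in the first window and 3 times in the second, CCAAT (both strands) matched 1 time in each, and TATAAA (both strands) matched in neither. Over all 32851 promoter windows of 300 bases in the table, 35.7% held GGGCGG, 37.4% CCAAT and 13.6% TATAAA. Of the 98 genes, 70 had a window; GGGCGG was in 55.7%, CCAAT in 30.4% and TATAAA in 16.5% of their 79 windows. A match describes the letters and is not a binding site.

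Laminin chains, the cell-facing network of the basement membrane, were spread more evenly among tumour-like cells and the cluster. In tumour-like cells Lama5 was at 42.1 CPM, Lamb2 at 39.2, Lamc1 at 30.01, Lamb1 at 12.1 and Lama4 at 5.65 CPM, so alpha, beta and gamma chains, which a laminin trimer needs, were all present. The ratio to macrophages was 26.7 for Lama5 (9.12 to 130; 3 macrophage UMIs), 14.9 for Lamb2 (6.37 to 46.1) and 5.72 for Lamc1 (3.09 to 12.0). Lamc1 was the one laminin chain whose macrophage level, 5.25 CPM (2.52 to 9.65), had an interval above the free RNA levels of 2.37 and 1.23 CPM. In the cluster no single laminin with 50 or more UMIs was resolved from the other tumour-like cells: Lama5 differed by 1.29-fold (0.618 to 2.39) and Lamb2 by 1.67-fold (0.861 to 2.94). Lamc3 was an exception with few counts, since all 6 of its UMIs lay in the cluster. Summed over all 11 laminin chains, the level was higher in the cluster. It was 250 CPM (183 to 334, from 46 UMIs) there and 131 CPM (126 to 136) in the other tumour-like cells. Lama3 had 29 UMIs over the kept cells.

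The linkers of both networks split. Perlecan was at 79.2 CPM (75.4 to 83.2) in tumour-like cells, 4.20 CPM in macrophages, where free RNA would give 9.10 or 3.68 CPM, and 54.4 CPM (26.1 to 100) in the cluster, 0.684 times the other tumour-like cells (0.327 to 1.26). Nid2 showed another pattern with few counts: 17 of its 22 UMIs lay in the 52 cells and 3 in the other 3623 tumour-like cells, a ratio of 611 (177 to 3255). Nid1 had 5 UMIs, of which 3 lay in the cluster.

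Fibrillar collagens, the rope-like chains of interstitial matrix, were concentrated in the cluster. Col1a2 had 149 UMIs over the kept cells, and 144 of them (96.6%, exact binomial interval 92.3 to 98.9%) lay in the 52 cells, which held 0.741% of all UMIs. Its partner chain Col1a1 had 56 of 64 UMIs there (87.5%, 76.8 to 94.4%). Of the 126 Col1a2 UMIs of the tumour-like class, 122 came from the 37 cluster cells that pass the tumour-like rule, and of 55 Col1a1 UMIs 50 did. In the other 3623 tumour-like cells Col1a2 was thus at 0.202 CPM (4 UMIs in 4 cells) and Col1a1 at 0.252 CPM (5 UMIs in 5 cells), and neither had a UMI in macrophages. Inside the cluster the level was uneven: 32 of 52 cells had a Col1a2 UMI, 1 cell held 36 UMIs and the top 3 held 58. Any of Col1a1, Col1a2 and Col3a1 was seen in 36 of the 52 cells and in 66 of the other 3623 tumour-like cells. The Col1a2 class ratio to macrophages (at least 4.003-fold) rests on these 37 cells.

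Col3a1, the fibrillar chain of softer tissue, was at 163 CPM (110 to 233) in the cluster and 3.48 CPM in the other tumour-like cells, a ratio of 46.9 (29.5 to 73.0), so 29.1% of its UMIs lay in the cluster. A further 69 of its 103 UMIs came from 60 tumour-like cells outside it. Col5a2, which joins fibrils and limits their width, was at 152 and 7.56 CPM, a ratio of 20.1 (12.9 to 30.3). Both had 0 UMIs in macrophages. Inside the cluster both were uneven: the top 3 cells of each gene held 17 of 30 Col3a1 UMIs and 14 of 28 Col5a2 UMIs. Type VI collagen, which forms beaded filaments near cells, differed less between the cluster and the other tumour-like cells. Col6a1 was at 40.8 CPM in tumour-like cells and 3.67 CPM in macrophages (ratio 11.1, 5.36 to 27.7), and 114 CPM in the cluster (2.83-fold over the other tumour-like cells, 1.74 to 4.36). Col6a2 was at 31.2, 2.62 and 136 CPM, with a cluster ratio of 4.47 (2.87 to 6.66). Col6a3, the third chain of the trimer, had 8 UMIs, of which 7 lay in the cluster. Col16a1 was at 4.55 and Col18a1 at 3.50 CPM in tumour-like cells.

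The Col1a2 promoter window is shown beside these counts with its motif matches in capitals. It lies at chr6:4505368-4505667 on the plus strand (GRCm38.p6), and held GGGCGG 2 times and CCAAT 2 times, counted on both strands, and no TATAAA.
Col1a2: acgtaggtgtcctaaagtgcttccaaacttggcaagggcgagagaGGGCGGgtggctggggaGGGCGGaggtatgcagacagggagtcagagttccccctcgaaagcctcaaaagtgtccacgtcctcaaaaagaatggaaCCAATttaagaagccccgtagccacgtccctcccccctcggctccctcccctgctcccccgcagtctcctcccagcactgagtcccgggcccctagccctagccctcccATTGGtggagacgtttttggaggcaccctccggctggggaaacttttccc

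**Figure D2:**
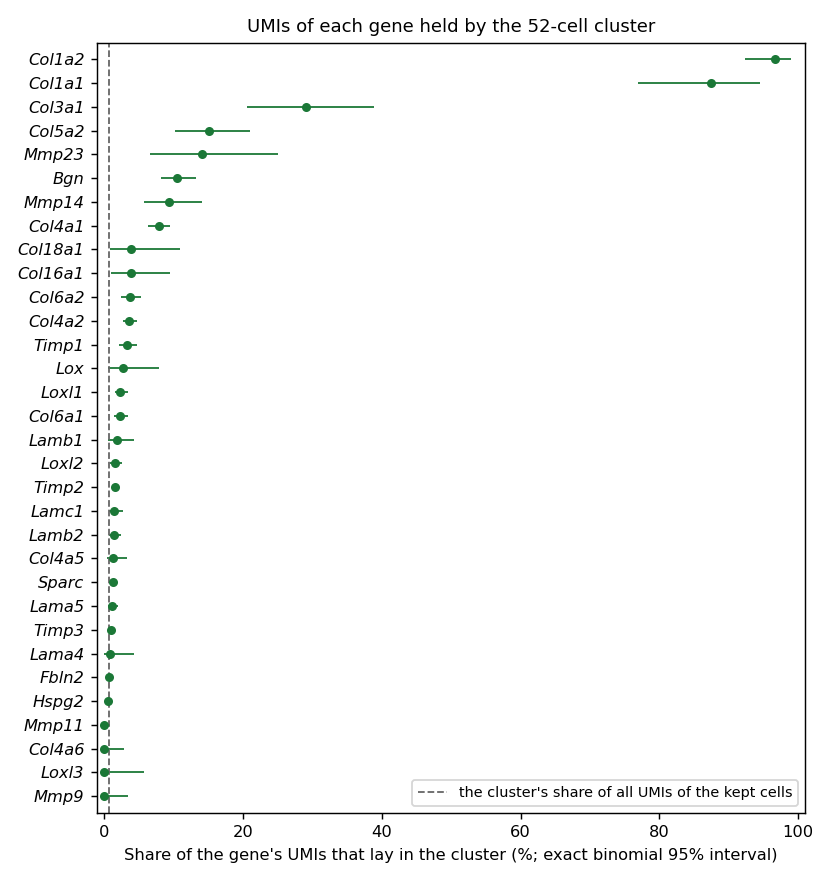
Share of each gene's UMIs over the kept cells that lay in the 52-cell cluster, in percent with exact binomial 95% intervals, for the 32 genes with 50 or more UMIs; the dashed line is the cluster's share of all UMIs, 0.741%. Col1a2 and Col1a1 stand apart at 96.6% and 87.5%, and Mmp11, Mmp9, Col4a6 and Loxl3 had 0 UMIs there.

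Over the 39 genes with 20 or more UMIs in the cluster and the other tumour-like cells, 13 were at least 2-fold higher in the cluster with 10 or more UMIs there, where 2.47% of the 11415 genes compared were. None was at least 2-fold higher in the other tumour-like cells, where 2.99% of all genes were, but with the cluster set to at least 3 UMIs a gene needed 32.6 CPM there, which only 13 of the 39 had. Of the 13 higher in the cluster, Col1a1, Col1a2 and Nid2 had under 20 UMIs outside it, so they passed the count filter through the cluster and had to differ. The 13 were Col1a1, Col1a2, Col3a1, Col4a1, Col4a2, Col5a2, Col6a1, Col6a2, Nid2, Bgn, Loxl1, Mmp14 and Timp1. The median log2 difference was 0.93 over the 39 genes and −0.15 over all genes compared. Free RNA in the cluster was estimated at 10.2 or 15.8% of UMIs, worth 199 or 202 of its 7123 CPM.

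Among the smaller matrix proteins of the set, Sparc was found across tumour-like cells, and Fbln2 and biglycan were higher in them than in macrophages. Sparc, a collagen-binding glycoprotein that modulates cell attachment, was at 1125 CPM (1111 to 1140) in tumour-like cells and 66.6 CPM (55.6 to 79.3) in macrophages. Free RNA would give 89.4 or 61.9 CPM in macrophages, so their Sparc level lay within what free RNA can give. With each cell of at least 1000 UMIs thinned to 1000, 63.6% of 3575 tumour-like cells outside the cluster, 73.2% of 41 cluster cells and 6.63% of 950 macrophages had a Sparc UMI. Without thinning these shares were 94.5%, 88.5% and 11.4%, and 10.0% of 130 T cell-like cells (median 715 UMIs), a type that should lack Sparc, had one. In the cluster Sparc was at 1626 CPM, 1.45-fold over the other tumour-like cells (1.29 to 1.63).

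Fbln2, a fibulin of basement membranes and elastic fibres, was at 130 CPM (126 to 135) in tumour-like cells, 7.87 CPM in macrophages, where free RNA would give 13.8 or 5.48, and 97.9 CPM in the cluster. Biglycan, a small proteoglycan that binds collagen, differed more: 26.8 CPM in tumour-like cells, 2.62 CPM in macrophages, and 337 CPM (258 to 432) in the cluster, 13.8-fold over the other tumour-like cells (10.4 to 18.0). All 4 UMIs of Fbln1 lay in the cluster.

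The lysyl oxidases, copper enzymes that crosslink collagen and elastin, were found in tumour-like cells. Loxl1 was at 55.5 CPM there and 2.62 CPM in macrophages (ratio 21.2, 9.04 to 65.3), Loxl2 at 38.4 and 3.15 CPM (12.2, 5.58 to 33.3), Lox at 4.90 CPM with 0 macrophage UMIs (at least 3.11-fold) and Loxl3 at 2.85 CPM. Loxl4 had 17 UMIs in all. Loxl1 was 2.78-fold higher in the cluster (1.84 to 4.04), while the 1.86-fold of Loxl2 had an interval that reached 1 (0.984 to 3.20).

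Metalloproteases split between the classes. Mmp11, a stromelysin activated inside the cell, was at 19.9 CPM (18.0 to 22.0) in tumour-like cells, at 1.57 CPM (3 UMIs) in macrophages, and at 0 UMIs in the cluster, which allows up to 16.3 CPM. Mmp14, a membrane-anchored collagenase that activates Mmp2, was at 8.80 CPM in tumour-like cells and 7.35 CPM (4.02 to 12.3) in macrophages, a ratio of 1.20 (0.695 to 2.24). Free RNA would give 0.791 or 0.370 CPM of it in macrophages, below their interval. The cluster stood at 109 CPM of Mmp14 (66.4 to 168), 13.7-fold over the other tumour-like cells (8.12 to 21.8). The top 3 cells held 10 of the 20 Mmp14 UMIs of the cluster. Mmp2, a gelatinase and the substrate of Mmp14, had only 3 UMIs, all in the cluster. Mmp23 was at 2.85 CPM in tumour-like cells and 48.9 CPM (9 UMIs) in the cluster.

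Mmp9, the gelatinase of myeloid cells, ran the other way. It had 70 UMIs in 60 of 1076 macrophages (36.7 CPM, 28.6 to 46.4), 4 UMIs in 4 of 3623 tumour-like cells outside the cluster (0.202 CPM) and none in the cluster, and free RNA would give at most 1.19 CPM in macrophages. The ratio of macrophages to tumour-like cells was 184 (68.6 to 693). After thinning, 4.11% of 950 macrophages and 0.0559% of 3575 tumour-like cells had an Mmp9 UMI. Mmp19 was at 5.25 CPM (10 UMIs) in macrophages and 1.25 CPM (25 UMIs) in tumour-like cells, 4.20-fold higher (1.80 to 9.05). Of the rare myeloid proteases, Mmp12 (macrophage elastase) had 5 of 5 UMIs, Mmp27 5 of 6 and Mmp8 (neutrophil collagenase) 4 of 5 in macrophages. Mmp24 had 49, Mmp10 28 and Mmp15 21 UMIs over the kept cells, with 0 in macrophages for each. That allows up to 1.57 CPM there, so absence from macrophages cannot be read from these counts.

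The inhibitors differed in how far they were shared. Timp3, which binds to the matrix itself, was at 195 CPM (189 to 201) in tumour-like cells and 6.30 CPM in macrophages, a ratio of 31.0 (17.7 to 60.0), and the macrophage value did not exceed the free RNA level of 14.2 or 8.18 CPM. Timp1 was at 35.6 and 8.395 CPM (4.80 to 13.6), a ratio of 4.24 (2.59 to 7.45), and free RNA would give 5.14 or 5.02 CPM of it in macrophages; with free RNA subtracted the ratio was 9.51 or 9.11. Timp2, which also takes part in the activation of Mmp2 by Mmp14, was at 627 CPM (616 to 638) in tumour-like cells and 600.3 CPM (566 to 636) in macrophages, a ratio of 1.04 (0.983 to 1.11). Free RNA would give 63.3 or 58.7 CPM of Timp2 in macrophages. In the cluster Timp2 was at 1213 CPM (1.95-fold over the other tumour-like cells, 1.70 to 2.23), Timp1 at 141 CPM (4.08-fold, 2.64 to 6.02) and Timp3 at 245 CPM (1.26-fold, 0.915 to 1.69).

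**Figure D3:**
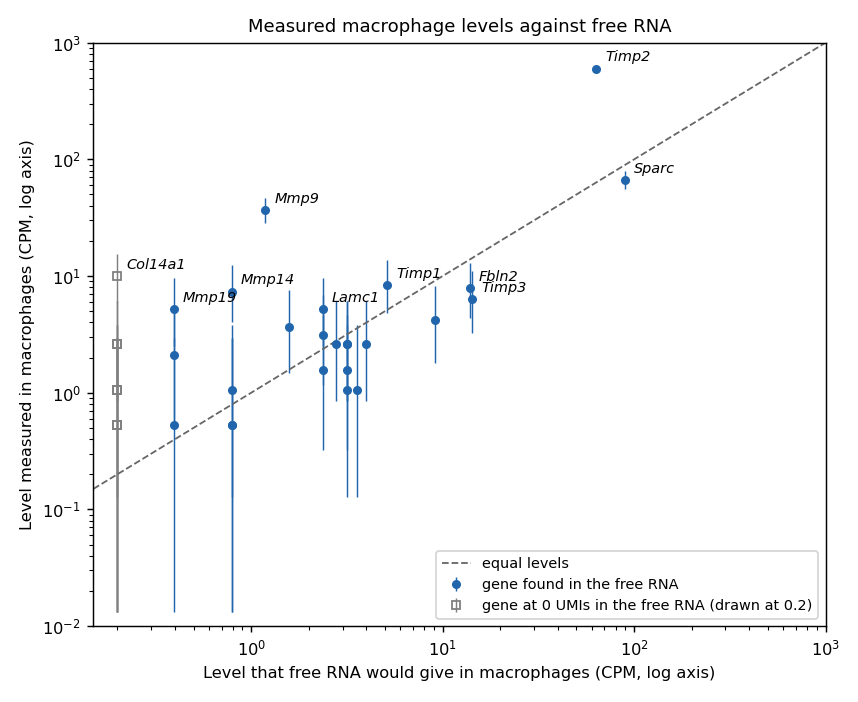
Level of each gene with a macrophage UMI (vertical, CPM, log axis, exact Poisson 95% intervals) against the level that free RNA from barcodes of 1 to 50 UMIs would give (horizontal, CPM, log axis); the dashed line marks equal levels, and genes at 0 UMIs in the free RNA are drawn at its left edge. Timp2, Mmp9, Mmp14, Mmp19 and Col14a1 lie above the line with their intervals, and Sparc, Timp3, Fbln2 and Hspg2 lie below it.

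Of the 35 genes with a macrophage UMI, 9 had more than 3 UMIs and an interval above both free RNA levels: Timp2, Lamc1, Mmp14, Mmp9, Mmp19, Col14a1, Mmp27, Mmp12 and Mmp8. No share over all genes was set beside the 9. The free RNA levels were taken as exact, although they too rest on counted UMIs. Lamc1 passed narrowly (lower bound 2.52 CPM against 2.37 CPM), and Mmp27, Mmp12 and Mmp8 had few UMIs. For these genes the rule cannot tell expression from free RNA. Col14a1, a collagen that lies on the surface of fibrils, had 19 UMIs in 19 macrophages (9.97 CPM, 6.002 to 15.6) and 3 UMIs in tumour-like cells, of which 2 lay in the cluster. The macrophage class held cells of 2 large clusters. In 696 macrophages led by Saa3 and Pf4 (median 1861 UMIs) Timp2 was at 740 CPM (695 to 787), against 227 CPM (186 to 275) in 350 macrophages of a cluster led by S100a9 and S100a8 (median 1289.5 UMIs), a ratio of 3.26 (2.67 to 4.02). Mmp9 was at 41.9 and 21.4 CPM (1.96-fold, 0.992 to 4.29), and Col14a1 went the other way at 6.50 and 21.4 CPM (0.304-fold, 0.109 to 0.831). S100a8 and S100a9 are neutrophil markers, and the free RNA estimate was 9.65% in the first group and 19.5% in the second. Their part in these differences was not tested. Against the Saa3- and Pf4-led macrophages alone, a choice made after the data were seen, the Timp2 ratio of tumour-like cells to macrophages was 0.847.

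Tumour-like cells outside the 52-cell cluster fell into 6 clusters of 50 or more cells, found without the matrix genes. Among the 23 genes with 100 or more UMIs, 13 differed at least 2-fold between the highest and the lowest cluster, where 35.2% of the 8327 genes compared did. The 13 included Lama4, whose ratio of 2.35 had an interval that held 1 (0.822 to 9.21). The highest and lowest clusters of each gene were picked from the same counts, and the intervals of these ratios do not cover that choice. The median ratio of highest to lowest was 2.31 over the 23 genes and 1.74 over all genes compared. At a coarser clustering (resolution 0.5) the count was 7 and at a finer one (resolution 2) it was 17. No share over all genes was computed at these 2 resolutions, so these 2 counts say nothing about this set in particular.

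Bgn, Col4a1, Col4a2 and Col5a2 were highest and lowest in the same pair of clusters. In 202 cells led by Tm4sf5, Mgp and Krt7, Bgn was at 55.2 CPM (42.8 to 70.1), Col4a2 at 138 CPM, Col4a1 at 105 CPM and Col5a2 at 17.3 CPM. In 595 cells led by Defb19, a defensin gene, the same genes were lowest, at 4.16, 17.9, 15.4 and 1.92 CPM. The ratios were 13.3 for Bgn (7.26 to 26.2), 7.68 for Col4a2 (5.64 to 10.6), 6.86 for Col4a1 (4.89 to 9.78) and 9.01 for Col5a2 (3.52 to 27.3). Mmp11, Lama5 and Col4a6 were lowest in the Tm4sf5-led cells. Mmp11 was at 37.7 CPM (31.2 to 45.2) in the Defb19-led and 9.06 CPM (4.52 to 16.2) in the Tm4sf5-led cells (ratio 4.17, 2.25 to 8.58), and Lama5 at 58.9 and 24.7 CPM (2.38, 1.61 to 3.63). Col4a6 was highest, at 7.37 CPM, in the Abhd2-led cells and at 1.65 CPM (2 UMIs) in the Tm4sf5-led cells. Col4a5 and Col6a2 were highest in the Tm4sf5-led cells, at 18.1 and 48.6 CPM, and lowest in the Top2a-led cells, at 10.1 and 14.9 CPM. The ratio was 3.27 for Col6a2 (2.05 to 5.32), while the 1.80 of Col4a5 had an interval that held 1 (0.927 to 3.51). Sparc differed by only 1.21-fold (1.15 to 1.27) over all 6 clusters, between 1054 and 1273 CPM. Loxl2 was highest, at 57.4 CPM, in 255 cells led by Top2a, a gene of dividing cells, and lowest, at 24.1 CPM, in 974 cells led by Igfbp5 (2.38-fold, 1.81 to 3.12).

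The Tm4sf5-led cells also had Slpi and Mgp, which are among the genes that lead the 52-cell cluster. Slpi was at 305 CPM in them and between 7.997 and 61.8 CPM in the other 5 clusters, and Mgp at 96.3 CPM and between 0.960 and 9.42 CPM. The 52 cells had 5487 CPM of Slpi and 1267 CPM of Mgp. Col1a2 and Col1a1, which also lead the 52 cells, had only 4 and 5 UMIs in all 3623 tumour-like cells outside them. The part of this overlap in Slpi and Mgp in the collagen values was not tested.

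**Figure D4:**
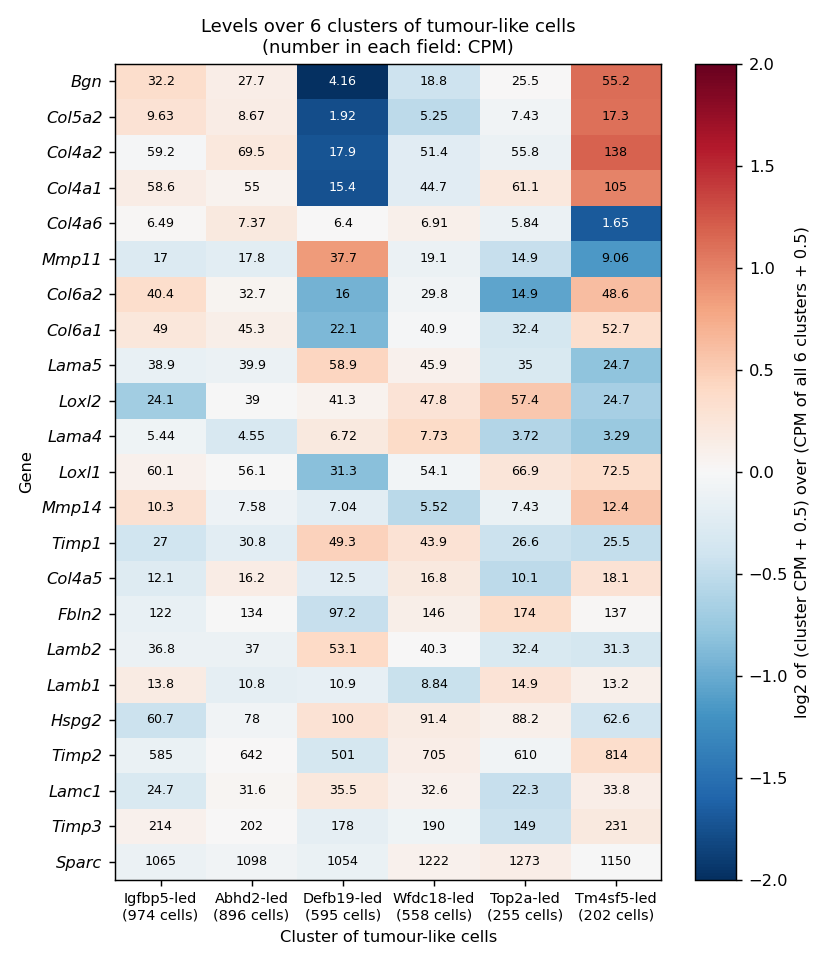
CPM of the 23 genes with 100 or more UMIs (rows, ordered by highest over lowest cluster) in 6 clusters of tumour-like cells (columns, named by a leading gene); colour is the log2 ratio of the cluster's CPM to the CPM of all 6, with 0.5 CPM added to each. Bgn, Col5a2, Col4a2 and Col4a1 are highest in the Tm4sf5-led and lowest in the Defb19-led cells, Mmp11 runs the other way, and Sparc is nearly level.

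Companion genes that make, bind or cut the same matrix were taken from lists written for this comparison, 72 genes in all, of which 46 could be compared. Tumour-like cells had 26 of them at least 2-fold higher and macrophages 15, against the background shares of 30.3% and 13.2% given above. Among genes of collagen processing, 11 of 17 were higher in tumour-like cells and 3 in macrophages. Serpinh1, the collagen chaperone, was at 72.1 and 3.15 CPM, and Pcolce, which aids removal of the collagen propeptide, at 165 and 9.44 CPM. Plod1, a lysyl hydroxylase, ran the other way at 2.15 CPM in tumour-like cells and 67.2 CPM in macrophages. Other adhesive and matrix proteins split 10 to 6 of 16: Dcn (decorin) was at 359 and 29.4 CPM and Eln (elastin) at 221 and 5.25 CPM, while Fn1 (fibronectin) was at 59.5 and 251 CPM, Tgfbi at 7.80 and 166 CPM and Thbs1 at 1.45 and 61.9 CPM. In the plasminogen system, Plat was at 38.5 and 3.15 CPM, and Plaur, the urokinase receptor, at 2.95 and 39.4 CPM, so 2 of 4 went each way. Of 9 sheddases and related proteases, 3 (Adamts1, Adamts5 and Adamts9) were higher in tumour-like cells and 4 (Adam8, Adam9, Adam15 and Adam17) in macrophages. In the 52-cell cluster 9 of 46 companions were at least 2-fold higher than in the other tumour-like cells, among them Dcn, Fn1 and Thbs1, and 2 were lower, where 2.47% and 2.99% of all genes were. The 2 lower ones, Plat (0.422-fold, 0.0868 to 1.24) and Serpinf1 (0.440-fold, 0.0905 to 1.29), had 3 UMIs each in the cluster, and both intervals held 1.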

How the data were processed

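The values deposited by the authors are UMI counts for each gene in each barcode of 1 ascites library (10x Genomics) (27998 genes, 737280 barcodes, 35733776 UMIs), per the labels and the file headers, and cells had not been selected. Aligner and genome build: not given in the sources used here. The 8 columns of the bulk table match no sample label and were not used. The gene set and companion lists were chosen with earlier results of these data known.

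Cells with at least 500 UMIs, 200 genes and at most 15% mitochondrial UMIs were kept. UMIs were summed per class and divided by all UMIs of the class (CPM). Intervals are exact Poisson for levels, exact conditional binomial for ratios and Clopper-Pearson for shares. A gene was called at a ratio of 2 with the lower class set to at least 3 UMIs, among genes with at least 20 UMIs over both classes; log2 differences had 5 CPM added. UMIs are not independent replicates of a condition, and no p-value was computed. Levels are not per length, so genes are compared between cells and not with each other. Genes with at least 50 UMIs were named with levels, those with 10 to 49 with totals; some genes are not reported here.

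Clustering (scanpy 1.11.5, leidenalg 0.10.2, scikit-learn 1.9.0, Python 3.11.15) used 2000 variable genes without the described genes, 30 components, 15 neighbours, resolution 1 and seed 1, which gave 16 clusters. Scrublet marked 89 doublets, which were kept and left out in an alternative. Markers of 18 cell types were checked for each cluster. Free RNA was the level of 8 tumour markers in macrophages, or 6 macrophage markers in tumour-like cells, over the level in poor barcodes; the marker choice was trimmed after values were seen. The ratio script was tested on simulated data. Promoter windows are from RefSeq.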

Additional observations from a re-analysis of the deposited data

Results flagged for a closer look

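The barcodes left out for more than 15% mitochondrial UMIs had a higher summed level of the described genes than tumour-like cells. This drew attention because these cells enter no comparison above. Over 519 barcodes (median 1095 UMIs, 709833 UMIs in all) the 98 genes summed to 4383 CPM (4230 to 4539), against 2734 CPM in tumour-like cells. Of the 32 genes with 50 or more UMIs, 22 had a ratio to tumour-like cells whose interval lay above 1, 8 had one that held 1, and 2 lay below it: Bgn (14.1 CPM, 0.526-fold, 0.251 to 0.974) and Col1a2 (0 UMIs, which allows a ratio of up to 0.837). Col1a1, Mmp9 and Mmp23 also had 0 UMIs there. Hspg2 was at 290 CPM (3.66-fold, 3.15 to 4.24), Lamb2 at 141 CPM (3.60-fold, 2.89 to 4.43), Lamb1 at 57.8 CPM (4.79-fold, 3.35 to 6.69), Lama4 at 31.0 CPM (5.48-fold, 3.31 to 8.71), Lox at 25.4 CPM (5.17-fold, 2.94 to 8.61), Col5a2 at 26.8 CPM (3.04-fold, 1.79 to 4.89), Loxl3 at 8.45 CPM (2.97-fold, 1.04 to 6.86), Mmp14 at 22.5 CPM (2.56-fold, 1.43 to 4.28), Fbln2 at 320 CPM (2.45-fold, 2.13 to 2.81), Col4a1 at 113 CPM (2.07-fold, 1.63 to 2.60) and Col4a2 at 97.2 CPM (1.63-fold, 1.26 to 2.07). Sparc (1.26-fold, 1.18 to 1.34), Timp2 (1.39-fold, 1.28 to 1.51), Loxl1 (1.02-fold, 0.721 to 1.39) and Col6a2 (1.04-fold, 0.654 to 1.57) differed less. No share over all genes was set beside the 22, so a shift of genes in general cannot be told apart from one of this set. The classes of these barcodes were not determined, and the part of cell damage was not tested.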

How the results depend on the processing

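No paired analysis was possible because the single-cell data are 1 library and the bulk columns match no sample label. The count of 26 genes at least 2-fold higher in tumour-like cells lay between 22 (each cell thinned to 1000 UMIs) and 29 (fold of 1.5) under every alternative run. The count of 3 higher in macrophages was 1 after thinning, 1 with at least 50 UMIs over both classes, and 9 with no filter on low counts, where the genes added had few UMIs. The summed level in tumour-like cells was 2704 CPM with at most 10% mitochondrial UMIs, 2758 with at least 5 UMIs of the own set and 0 of the other, 2780 and 2874 after free RNA was subtracted by barcodes of 1 to 50 and of 100 to 200 UMIs, and 2699 without the mesothelial- or fibroblast-like cluster. The summed level in macrophages was 698 and 728 CPM after the same subtractions, 745 after thinning and 923 in the Saa3- and Pf4-led macrophages, an alternative added after the data were seen. The cluster's summed level was 7940 CPM at 1000 or more UMIs per cell; the cluster had the same 52 cells at resolutions 0.5 and 2. The 13 genes that differed between tumour-like clusters were 7 at resolution 0.5 and 17 at resolution 2, which were also added later and have no share over all genes beside them.

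Of 320 ratios of single genes under these alternatives, 279 stayed within the interval of the reported ratio, 40 moved beyond it and 1 of a called gene reversed. In all, 7 ratios of 4 genes crossed 1: Col1a2, Col1a1 (0.160 without the cluster and 0.836 with the stricter class rule, against 1.75), Timp2 (0.842 centred and 0.847 in the Saa3- and Pf4-led macrophages) and Mmp14 (0.921 thinned and 0.966 centred). The Col1a2 ratio of tumour-like cells to macrophages was 0.128 without the cluster, with the macrophage count of 0 set to 3 UMIs as for Col1a1, so no fold can be given there. Subtraction of free RNA moved 16 and 19 of 32 ratios by over 1.5 times, 12 and 16 of them upward: Sparc from 16.9 to 642 or 219, Timp3 from 31.0 to 112 or 115, Fbln2 from 16.6 to 73.5 or 50.5, Hspg2 from 18.9 to 44.5 or 141, Loxl1 from 21.2 to 32.0 or 274, Loxl2 from 12.2 to 44.9 or 26.9, and Bgn from 10.2 to 67.8 with the second profile. Where free RNA was above the measured macrophage level, the count left was 0 and was set to 3 UMIs. This held, among others, for Sparc, Fbln2 and Hspg2 with the first profile and for Timp3 with both. Such ratios depend on that setting, and others rest on the few macrophage UMIs left, so they are not fold estimates. Depth limits the rare genes: 3 UMIs in macrophages are worth 1.57 CPM and in the 52 cells 16.3 CPM.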
